A study of Homo sapiens with 4 samples.

Results

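The leukocyte integrin chains examined here are 10 genes, 7 for alpha chains (ITGAM, ITGAX, ITGAL, ITGA4, ITGA5, ITGA6, ITGAV) and 3 for beta chains (ITGB2, ITGB1, ITGB7). They were found by symbol in the deposited table of 58302 genes, and all 10 had exactly 1 row. Their RNA was measured in 4 libraries of BLaER1 cells, 2 labelled undifferentiated and 2 labelled differentiated. BLaER1 is a clonal human B cell leukaemia line that carries an oestrogen-inducible form of the transcription factor C/EBPα, and both stages share this insertion. The undifferentiated cells were grown in RPMI with serum. Per the labels' protocols, the differentiated cells received 100 nM oestradiol together with the cytokines M-CSF and IL-3 for 5 to 6 days. The dose of 10 ng/ml precedes IL-3 in the protocol, which leaves the M-CSF dose uncertain. The comparison asks how expression differs between the stages. Nothing in the labels ties a library to a culture of its own, so the spread between these libraries could be technical. The SE and p-values below combine a gene's own spread with that of genes of similar level.

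An integrin is a pair of 1 alpha and 1 beta chain that spans the membrane, binds matrix or a counter-receptor outside the cell, and is linked to actin inside it through talin and kindlin. The beta 2 chain pairs with alpha L (LFA-1), alpha M (Mac-1, complement receptor 3) and alpha X, and these receptors serve leukocyte arrest and phagocytosis. The beta 1 chain pairs with alpha 4 (VLA-4, which holds B cell precursors to VCAM1 and fibronectin), alpha 5 (the classical fibronectin receptor), alpha 6 (a laminin receptor) and alpha V. The beta 7 chain pairs with alpha 4 and alpha E.

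Levels are given in TPM, a relative transcript abundance that allows for gene length, so levels of different genes can be compared. Differences are between group means of log2(TPM + 1), and this scale compresses changes at low TPM. A gene is called when its adjusted p in limma is below 0.05 over all 10180 genes that reached 1 TPM in at least 2 libraries. Of these, 18.6% were called higher and 22.8% lower in differentiated cells. Of the 10 members, 9 were tested: 7 were called higher, 1 lower and 1 not called. ITGA6 reached 1 TPM in a single library and was not tested. ITGAM, ITGAX and ITGAL were below 1 TPM in both undifferentiated libraries and ITGAV in 1 of them, so these 4 entered the test through their differentiated libraries, and the count of 7 depends in part on that filter. The median log2 difference was 1.72 over the 9 tested members and -0.14 over all tested genes. Both differentiated libraries lay above both undifferentiated libraries for 8 members, the untested ITGA6 among them (31% of all tested genes did). They lay below for 1 member (39% of all tested genes did). For ITGAM, ITGAX and ITGAL the lack of overlap was fixed by the filter, so the count of 8 depends in part on it too.

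**Figure D1:**
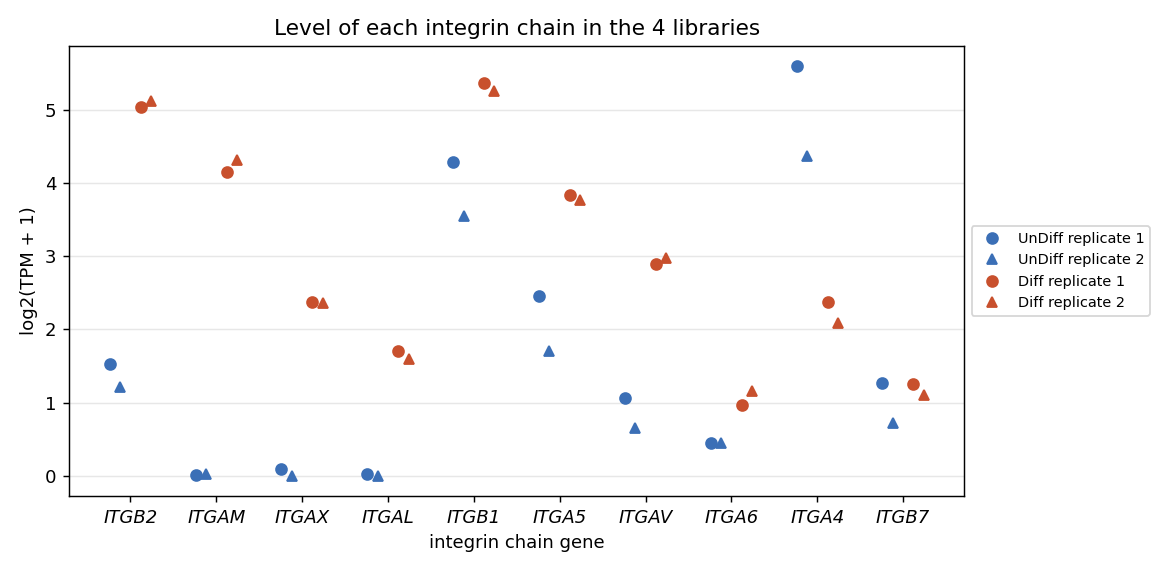
Level of each of the 10 chains as log2(TPM + 1) on the vertical axis, with undifferentiated libraries in blue and differentiated libraries in red, and replicate 1 as circles and replicate 2 as triangles. ITGA4 is the single chain with both red points below both blue points, and the points of ITGB7 overlap between stages.

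The beta 2 chain and its 3 alpha partners were all higher in differentiated cells. ITGB2 (ENSG00000160255) was listed at 31.9 and 33.9 TPM in differentiated replicates 1 and 2 and at 1.88 and 1.31 TPM in undifferentiated replicates 1 and 2. Both differentiated libraries were far above both undifferentiated ones, with means of 32.9 ± 1.39 and 1.60 ± 0.403 TPM (SD, n = 2), a 20.6-fold ratio. The log2 difference was 3.71 ± 0.38 (SE, adjusted p = 1.02e-05). ITGB2 was therefore already present at a low level before differentiation, whereas its partners were at or near 0.

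ITGAM (ENSG00000169896), the alpha chain of Mac-1, showed the largest log2 difference of the 9 tested members under the main settings. Its TPM was 16.8 and 19.0 in differentiated replicates 1 and 2, against 0.01 and 0.02 in the undifferentiated pair. The log2 difference was 4.22 ± 0.38 (SE, adjusted p = 3.72e-06). ITGAX (ENSG00000140678), the alpha X chain of dendritic cells and macrophages, stood at 4.19 and 4.14 TPM against 0.07 and 0 TPM. This gave a log2 difference of 2.32 ± 0.27 (SE, adjusted p = 2.78e-05). ITGAL (ENSG00000005844), the alpha chain of LFA-1, was listed at 2.26 and 2.03 TPM against 0.02 and 0 TPM. Its log2 difference was 1.64 ± 0.21 (SE, adjusted p = 5.01e-05). None of these 3 genes overlapped between stages, which passing the filter had fixed, as all were below 1 TPM in both undifferentiated libraries. In the differentiated libraries their own order was ITGAM, then ITGAX, then ITGAL without overlap. Near 0 the size of a log2 difference depends on the pseudocount: with 0.1 in place of 1 it was 7.29 for ITGAM, 5.03 for ITGAX and 4.36 for ITGAL. With TPM rescaled over protein-coding genes it was 7.02, 4.87 and 4.09. This rescaling raises every protein-coding value, so the pseudocount of 1 then weighs less.

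The genes of ITGAM and ITGAX are direct neighbours in RefSeq, followed by ITGAD, the alpha D chain and a further beta 2 partner. ITGAD did not pass the filter, with 0.01 and 0.18 TPM in differentiated libraries and 0 in both undifferentiated ones. The ITGB2 locus also carries ITGB2-AS1, an overlapping antisense RNA, at 2.76 and 1.88 TPM in differentiated and 0 and 0.15 TPM in undifferentiated libraries. The libraries were stranded per the labels' protocols, but the sources used here do not state whether counting used the strand, so reads from the overlap cannot be told apart between these genes.

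Upstream sequence is shown for ITGAM, the chain with the largest rise, and ITGA4, the chain that fell, because they were the 2 extremes of the comparison. RefSeq promoter entries matched 7 of the 10 members; ITGAL, ITGAX and ITGB2 had no entry. Each stretch runs 5′ to 3′ on the plus strand of GRCh38.p14 and ends before the first exon annotated there in GENCODE. It covers chr16:31259725-31259966 for ITGAM and chr2:181457136-181457201 for ITGA4. Capitals mark matches to any of 3 motifs searched on both strands: GAGGAA (a core of PU.1 sites), TTGCNNAA (C/EBP sites) and TGTGGT (RUNX sites).
ITGAM: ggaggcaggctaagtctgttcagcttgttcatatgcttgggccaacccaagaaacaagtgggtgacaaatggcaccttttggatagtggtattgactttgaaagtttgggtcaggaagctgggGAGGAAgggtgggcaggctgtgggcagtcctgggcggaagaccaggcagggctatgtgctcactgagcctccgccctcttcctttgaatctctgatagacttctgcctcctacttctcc
ITGA4: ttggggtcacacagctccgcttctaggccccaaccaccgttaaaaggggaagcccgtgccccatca

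In the full window of 250 bases before the RefSeq start, ITGAM held 1 match to GAGGAA, beginning 127 bases before the start, and none to the other 2 motifs. ITGA4 held no match to any of the 3 in its 250 bases. Among the other members with an entry, GAGGAA or its reverse complement was also found in a window of ITGAV, ITGB1 and ITGB7, of which ITGB7 was not called. TTGCNNAA was found in ITGA5 and TGTGGT in 1 window of ITGA6. GAGGAA occurred in 23.6% of the 35116 RefSeq windows of this length, TTGCNNAA in 9.05% and TGTGGT in 11%. The match in ITGAM is a description of its letters and not of binding.

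Among the chains that pair with beta 1, ITGB1 itself rose moderately. ITGB1 (ENSG00000150093), the common beta chain of matrix receptors, stood at 40.5 and 37.3 TPM after differentiation and at 18.6 and 10.7 TPM before it. The stages did not overlap, although undifferentiated replicate 1 was nearer to the differentiated libraries than replicate 2. The ratio of the means was 2.66 and the log2 difference 1.40 ± 0.39 (SE, adjusted p = 0.0113). ITGA5 (ENSG00000161638), the fibronectin receptor chain, was listed at 13.3 and 12.6 TPM against 4.50 and 2.26 TPM. Its mean was 3.83-fold higher, with a log2 difference of 1.72 ± 0.40 (SE, adjusted p = 0.004).

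ITGAV (ENSG00000138448), a chain of vitronectin and osteopontin receptors, was listed at 6.42 and 6.85 TPM against 1.09 and 0.58 TPM. Its mean was 7.95-fold higher, with a log2 difference of 2.07 ± 0.37 (SE, adjusted p = 0.000627) that was 3.34 after rescaling over protein-coding genes. ITGA6 (ENSG00000091409), a laminin receptor chain, was low throughout at 0.96 and 1.24 TPM in differentiated libraries and 0.37 TPM in both undifferentiated ones. It was not tested as deposited, but after rescaling over protein-coding genes it passed the filter and was called higher (log2 difference 1.68, adjusted p = 0.00471). This rescaling raises every protein-coding value, so the fixed 1 TPM filter then reaches lower levels. It passed 11945 protein-coding genes, against 9295 as deposited. Without a filter ITGA6 was not called (log2 difference 0.61, adjusted p = 0.23).

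ITGA4 (ENSG00000115232), the alpha chain of VLA-4, was the 1 member that fell. Its TPM was 47.4 and 19.8 in undifferentiated replicates 1 and 2, and 4.18 and 3.24 in the differentiated pair. The undifferentiated libraries differed from each other by more than for any other member, yet both lay well above both differentiated libraries. The mean fell from 33.6 ± 19.5 to 3.71 ± 0.665 TPM (SD, n = 2), a 9.05-fold ratio, and the log2 difference was -2.76 ± 0.44 (SE, adjusted p = 0.000275). It was -2.15 without undifferentiated replicate 1 and -3.37 without undifferentiated replicate 2, so the size of the fall depends on which of these libraries is used.

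Before differentiation ITGA4, ITGA5 and ITGB1 differed between the replicates by more than the median tested gene. The part of a shift between whole libraries in this spread was not tested. Undifferentiated replicate 1 exceeded replicate 2 by a median of 0.50 on the log2 scale over all tested genes, and by 1.22 for ITGA4, 0.75 for ITGA5 and 0.74 for ITGB1. Median-of-ratios scaling moved the median of all tested genes up by 0.11. Rescaling over protein-coding genes gave a median 0.51 higher, but over a different set, the 11945 protein-coding genes that then passed the filter. Relative to the median of all tested genes, ITGB1 stood at 1.53 as deposited and at 1.56 with median-of-ratios factors. Quantile normalization put it at 1.91. Rescaling over protein-coding genes put it at 1.64, relative to the median of that different set.

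ITGB7 (ENSG00000139626), the beta chain of the gut-homing receptor, was not called. Its levels were 1.39 and 1.16 TPM after differentiation and 1.40 and 0.65 TPM before it. The stages overlapped, and the log2 difference was 0.19 ± 0.27 (SE, adjusted p = 0.615). It was -0.08 without undifferentiated replicate 2 and 0.85 after rescaling over protein-coding genes, uncalled in both cases. At this replication a small difference in ITGB7 could not be told from none.

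With 1 differentiated library left out, that stage has a single library and the residual spread comes from the undifferentiated pair alone, the lone library being assumed to vary likewise. The differences of the members hardly moved, while their standard errors rose. Without differentiated replicate 1 or 2 the log2 difference was -2.90 and -2.61 for ITGA4, 2.11 and 2.03 for ITGAV, 1.69 and 1.75 for ITGA5, and 1.34 and 1.45 for ITGB1. The SE of ITGA4 was 0.75 in both cases, against 0.44 with all libraries. These 4 members then missed the threshold (adjusted p = 0.0704 and 0.0859 for ITGA4, 0.0616 and 0.0651 for ITGAV, 0.212 and 0.201 for ITGA5, 0.257 and 0.222 for ITGB1), and ITGB2, ITGAM, ITGAX and ITGAL passed it. With either undifferentiated library left out, where the closer differentiated pair gives the spread, all 8 passed it.

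**Figure D2:**
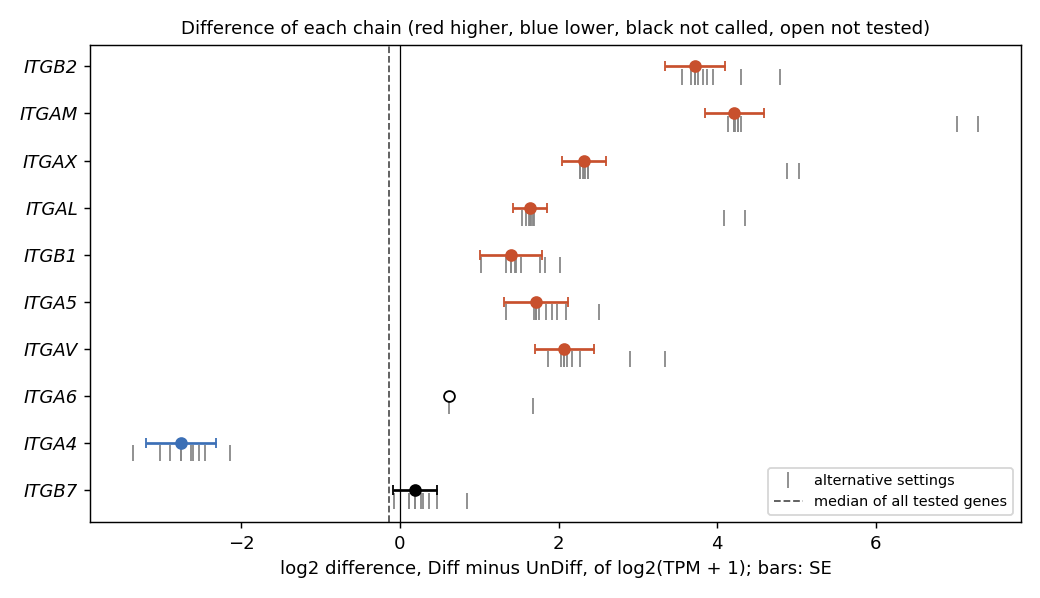
Log2 difference between differentiated and undifferentiated cells for each chain on the horizontal axis; points are the main values with SE bars, ticks below them are the alternative processing settings, and the dashed line is the median of all tested genes at -0.14. The ticks of ITGA4 all lie below 0 and those of the 7 chains called higher all lie above 0.

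The order of the members by level changed between the stages. In undifferentiated cells ITGA4 was the most abundant of the 10 (mean 33.6 TPM), followed by ITGB1 (14.6 TPM) and ITGA5 (3.38 TPM), with no overlap between these neighbours. ITGB2, ITGB7 and ITGAV followed at 1.60, 1.03 and 0.835 TPM, each overlapping the next. ITGA6 stood below them at 0.37 TPM, and ITGAX, ITGAM and ITGAL overlapped one another near 0. In differentiated cells the order was ITGB1 (38.9 TPM), ITGB2 (32.9), ITGAM (17.9), ITGA5 (12.9), ITGAV (6.64) and ITGAX (4.17), again without overlap between neighbours. ITGA4 (3.71 TPM) came next and overlapped ITGAX. ITGAL followed at 2.15 TPM, and ITGB7 and ITGA6 overlapped at 1.28 and 1.10 TPM.

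Shares of the summed TPM of a chain class within a library do not depend on how the library was scaled. Over the 18 human alpha chain genes, ITGA4 made up 68.2% and 59.2% in the undifferentiated and 8.12% and 6.2% in the differentiated libraries. ITGAM went from 0.0144% and 0.0599% to 32.7% and 36.3%, and ITGA5 from 6.48% and 6.76% to 25.8% and 24.2%. ITGAV went from 1.57% and 1.74% to 12.5% and 13.1%. Thus 3 chains, ITGAM, ITGA5 and ITGAV, made up most of the alpha chain RNA of the differentiated libraries.

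Over the 8 beta chain genes, ITGB1 made up 83.6% and 81.5% in undifferentiated and 49.2% and 44.3% in differentiated libraries. Its share was lower although its own TPM was higher. ITGB2 went from 8.47% and 9.98% to 38.8% and 40.1%. The summed TPM of the beta chains was 82.2 and 84.3 in differentiated and 22.2 and 13.1 in undifferentiated libraries. That of the alpha chains was 51.5 and 52.3 against 69.5 and 33.4, so the stages overlapped. With 2 libraries per stage the smallest two-sided p of an exact permutation test is 0.333, and the shares are therefore given without a test.

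**Figure D3:**
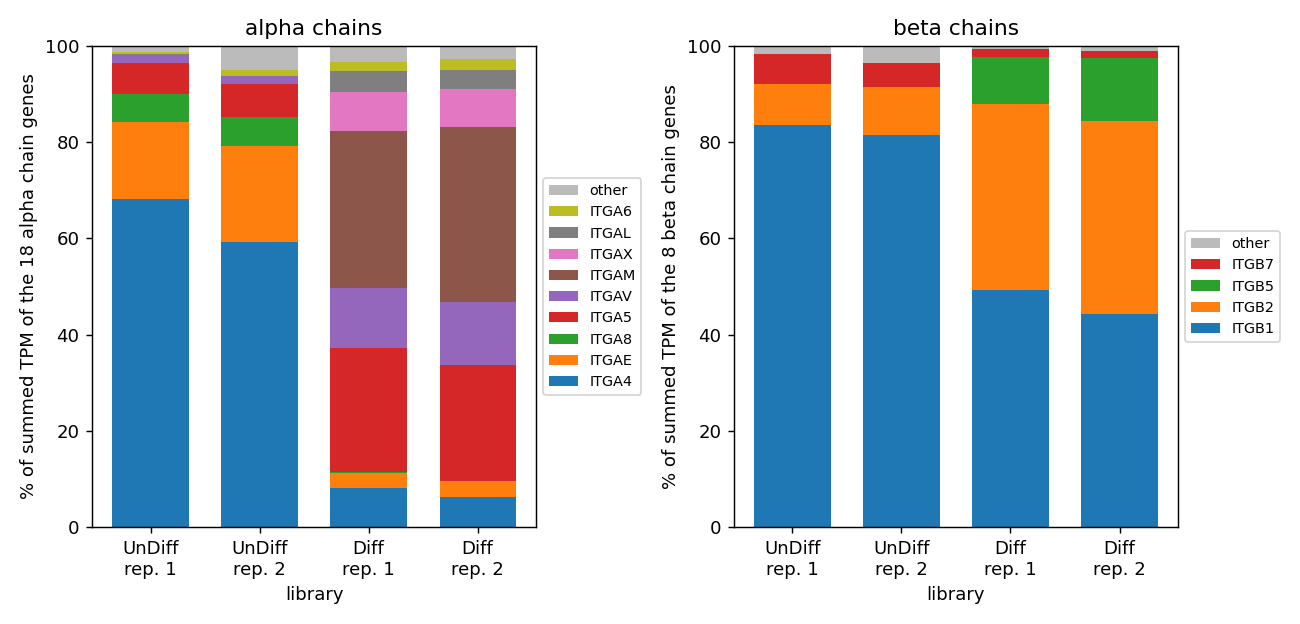
Stacked bars of the share (%) of each gene in the summed TPM of the 18 alpha chain genes (left) and the 8 beta chain genes (right), 1 bar per library. ITGA4 and ITGB1 fill most of the undifferentiated bars, and ITGAM, ITGA5, ITGAV and ITGB2 take larger parts of the differentiated bars.

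Ratios of partner chains within a library moved in the same way. The TPM of ITGA4 was 2.55 and 1.85 times that of ITGB1 in undifferentiated libraries and 0.103 and 0.0868 times in differentiated ones. ITGAM stood at 0.00532 and 0.0153 of ITGB2 before and at 0.527 and 0.561 of it after differentiation. ITGA5 changed less against ITGB1, at 0.242 and 0.211 before and 0.328 and 0.338 after. The ratio of ITGB2 to ITGB1 was 0.101 and 0.123 before and 0.788 and 0.907 after. These are RNA ratios and do not measure assembled receptors, which the libraries cannot show. In all these bulk libraries, fewer cells that express a chain and less RNA of it per cell cannot be told apart.

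Of the 16 other integrin chain genes, 13 did not pass the filter and 3 were tested, with 1 called higher and 2 lower. Over all tested genes 18.6% were called higher and 22.8% lower. ITGB5, called higher, and ITGA8, called lower, were below 1 TPM in both libraries of 1 stage. They passed the filter through the other stage, so these counts depend in part on it. Rescaling over protein-coding genes gave 3 higher and 2 lower, where 34.3% of the genes then tested were called higher. ITGB5, a beta partner of alpha V, was listed at 7.93 and 11.03 TPM in differentiated libraries and at 0 in both undifferentiated ones (adjusted p = 1.27e-05). It made up 9.65% and 13.1% of the beta chain TPM after differentiation, the third largest share. ITGAE, the alpha partner of beta 7, was lower at 1.65 and 1.74 against 11.1 and 6.69 TPM (log2 difference -1.84, adjusted p = 0.00239). ITGA8, a further beta 1 partner, was listed at 0.04 and 0 TPM against 4.13 and 2.02 TPM (adjusted p = 0.000119). Without differentiated replicate 1 or 2, where the undifferentiated pair alone gives the spread, the log2 difference was -1.81 and -1.86 for ITGAE and -1.98 and -1.92 for ITGA8. The adjusted p was then 0.177 and 0.169 for ITGAE and 0.0553 and 0.0617 for ITGA8.

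Proteins that switch integrins on and link them to actin went both ways. Of 22 such genes 19 were tested, 6 of them called higher and 3 lower, with a median log2 difference of 0.65. The shares over all tested genes were 18.6% higher and 22.8% lower. Of these calls, 2 higher and 2 lower belong to genes below 1 TPM in both libraries of 1 stage, which passed the filter through the other. After median-of-ratios scaling the counts were 11 and 4, over protein-coding genes 14 and 3, and with either differentiated library left out 2 and 0. FYB1 (ADAP), an adaptor of inside-out signalling, went from 0.02 and 0.01 to 10.7 and 9.94 TPM (adjusted p = 1.01e-05). TLN1, encoding talin, rose from 9.17 and 5.93 to 22.1 and 26.1 TPM (adjusted p = 0.00523), and CYTH1, cytohesin-1, which binds the beta 2 tail, from 7.31 and 5.79 to 23.8 and 23.1 TPM (adjusted p = 0.00253). VCL, encoding vinculin, fell from 13.6 and 9.28 to 0.57 and 0.79 TPM (log2 difference -2.87, adjusted p = 7.85e-05). VAV3, a guanine nucleotide exchange factor, and FERMT1, a kindlin of epithelia, also fell (log2 differences -1.80 and -1.50). FERMT3, the most abundant kindlin gene of the list, was called higher, at 16.17 and 20.25 against 7.32 and 4.62 TPM (log2 difference 1.48, adjusted p = 0.00831). RAP1B, the small GTPase that drives talin recruitment, was the most abundant gene of the list not called, at 35.3 and 34.4 against 54.9 and 38.2 TPM. FYB1 was also called without either differentiated library. For TLN1, CYTH1, VCL and FERMT1 the differences stayed near their size. Without differentiated replicate 1 or 2 the log2 values were 1.69 and 1.46 for TLN1, 1.68 and 1.72 for CYTH1, -2.78 and -2.97 for VCL, and -1.54 and -1.45 for FERMT1. With the spread taken from the undifferentiated pair, the adjusted p was 0.169 and 0.23 for TLN1, 0.163 and 0.153 for CYTH1, 0.0641 and 0.0548 for VCL, and 0.0532 and 0.0645 for FERMT1. VAV3 varied more, at -1.01 (adjusted p = 0.0643) without undifferentiated replicate 1 and -2.60 without undifferentiated replicate 2. Without differentiated replicate 1 or 2 its adjusted p was 0.205 and 0.357.

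Genes that restrain or modulate integrin activation were likewise mixed, with 5 of 11 tested (12 in the list) called higher and 1 lower and a median log2 difference of 0.73. Over all tested genes the shares were 18.6% and 22.8%. After median-of-ratios scaling 6 were called higher and 3 lower, where 27.2% and 28.1% of all tested genes were called. With either differentiated library left out, fewer genes of the list were called. DOK2, an adaptor that competes at beta tails, went from 0 and 0.07 to 8.32 and 9.15 TPM (adjusted p = 1.35e-05). SIPA1, a GTPase-activating protein for RAP1, rose from 2.55 and 1.96 to 11.9 and 11.2 TPM (adjusted p = 0.00111), and DOK1 from 1.00 and 0.65 to 4.38 and 5.51 TPM (adjusted p = 0.00184). RAP1GAP2, which also acts on RAP1, fell from 8.42 and 9.57 to 1.77 and 2.60 TPM (adjusted p = 0.00381). STK4, a kinase downstream of RAP1 and the most abundant gene of the list not called, stood at 7.01 and 6.34 against 5.64 and 2.22 TPM. Scaling by median of ratios brought it to a call (adjusted p = 0.0201). Without differentiated replicate 1 or 2 the log2 difference was 1.92 and 1.99 for SIPA1, 1.84 and 1.57 for DOK1, and -1.47 and -1.85 for RAP1GAP2. On the spread of the undifferentiated pair the adjusted p was 0.147 and 0.138 for SIPA1, 0.0641 and 0.0743 for DOK1, and 0.228 and 0.15 for RAP1GAP2.

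Focal adhesion and kinase genes were mostly higher. Of 27 genes 23 were tested, 16 called higher and 0 lower, with a median log2 difference of 1.71. Over all tested genes 18.6% were called higher and 22.8% lower. The largest differences belonged to adaptors with an activation motif that signal downstream of beta 2 in myeloid cells, TYROBP (66.3 and 77.6 against 0.15 and 0 TPM) and FCER1G (48.5 and 58.8 against 0.36 and 0.12 TPM). PTK2B, a kinase related to focal adhesion kinase, was the most abundant gene of the list not called, at 8 and 9.19 against 13.4 and 7.68 TPM. Of the 16 called higher, 8 were below 1 TPM in both undifferentiated libraries and passed the filter through the differentiated ones. On the spread of the undifferentiated pair, with either differentiated library left out, 7 were called higher. In limma 0 were called lower and 1 was lower at an unadjusted p under 0.05. It was 1 called lower after median-of-ratios scaling and 2 without undifferentiated replicate 2.

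Among 25 ligands of these receptors 9 were tested, 5 called higher and 1 lower, with a median log2 difference of 2.35. Over all tested genes 18.6% were called higher and 22.8% lower. Of the 5 called higher, 4 (SPP1, FN1, C3 and ICAM1) were below 1 TPM in both undifferentiated libraries and passed the filter through the differentiated ones, so the count and the median are partly fixed by the filter. Rescaling over protein-coding genes gave 9 higher and 1 lower, and the number lower ranged from 0 to 2 over the 13 alternatives. SPP1 (osteopontin) and FN1 (fibronectin) are ligands of alpha V and alpha 5 integrins. FN1 went from 0.83 and 0.14 TPM before differentiation to 460 and 504 TPM after it (adjusted p = 9.51e-09), and SPP1, listed at 0 in both undifferentiated libraries, at 2563 and 2504 TPM. C3, whose fragment iC3b binds alpha M and alpha X, was listed at 34.0 and 37.1 against 0.01 and 0 TPM (adjusted p = 6.74e-07). The 2 tested ICAM genes went opposite ways. ICAM1 rose from 0.29 and 0.08 to 5.12 and 4.90 TPM (log2 difference 2.35, adjusted p = 6.48e-05). ICAM2, a ligand of LFA-1, fell from 4.93 and 5.30 to 1.39 and 1.66 TPM (log2 difference -1.28, adjusted p = 0.0139). Without differentiated replicate 1 or 2 the log2 difference was -1.20 and -1.35 (adjusted p = 0.332 and 0.281 on the undifferentiated pair's spread). The laminin chain gene LAMC1 was the most abundant gene of the list not called, at 5.34 and 5.06 against 12.4 and 10.0 TPM. It was called lower after median-of-ratios scaling (adjusted p = 0.0198). Of the alpha 4 ligands, VCAM1 and MADCAM1 did not exceed 0.14 TPM in any library. Fibronectin is also bound by VLA-4, and FN1 was at 460 and 504 TPM in differentiated libraries.

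Membrane proteins that associate or act with integrins were mostly higher, with 11 of 14 tested (15 in the list) called higher and a median log2 difference of 1.93. The share called higher over all tested genes was 18.6%. In limma 0 were called lower and 0 were lower at an unadjusted p under 0.05, but 2 were called lower without undifferentiated replicate 2. SELPLG, the P-selectin ligand, was listed at 9.99 and 13.6 against 0.02 and 0 TPM. CD36, a thrombospondin receptor, was listed at 11.5 and 12.5 against 0.16 and 0 TPM. The tetraspanin gene CD81 rose from 6.08 and 2.33 to 22.5 and 36.8 TPM (log2 difference 2.62, adjusted p = 0.000435). Without differentiated replicate 1 or 2 the log2 difference was 2.96 and 2.27 (adjusted p = 0.0675 and 0.126 on the undifferentiated pair's spread). BSG, encoding basigin, was the most abundant gene of the list not called, at 9.63 and 10.5 against 18.8 and 13.9 TPM. It was called lower without undifferentiated replicate 2 (adjusted p = 0.0301), and on the spread of the undifferentiated pair, with either differentiated library left out, 4 genes of the list were called higher. Of the 11, 4 were below 1 TPM in both undifferentiated libraries.

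**Figure D4:**
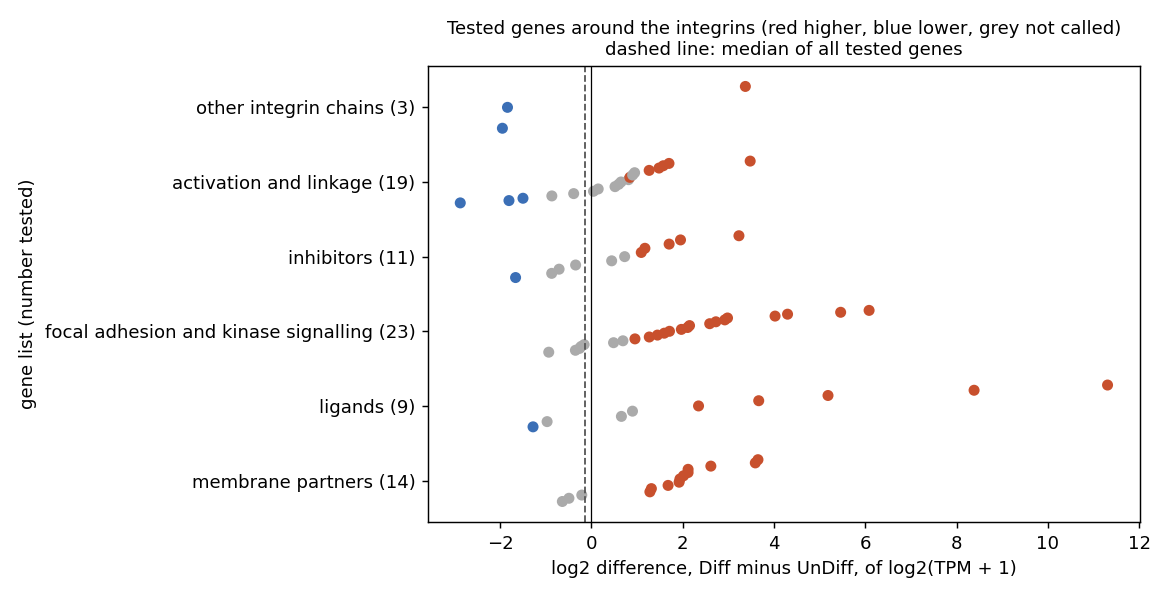
Log2 difference between differentiated and undifferentiated cells for each tested gene of the 6 lists around the integrins, 1 point per gene, coloured by its call. Most red points lie in the lists of focal adhesion and kinase genes and membrane partners. There 16 of 23 and 11 of 14 tested genes were called higher, against 18.6% of all tested genes.

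Markers of cell identity were read in the same libraries. All 10 macrophage markers were called higher, with a sum of 759 to 838 TPM in differentiated against 6.36 to 8.34 TPM in undifferentiated libraries. All 10 B lineage markers were called lower, with sums of 12.9 to 15.9 against 349 to 584 TPM, so B lineage RNA was still listed beside the ITGA4 that remained in differentiated libraries. Its part in that level was not tested. Of the markers of other cell types, TRAC, a T cell receptor constant gene, was listed at 110 and 51.5 TPM in undifferentiated and 3.82 and 6.61 TPM in differentiated libraries, whereas the T cell genes CD3D and CD3E were at 0 in all. PPBP, a platelet chemokine gene, was at 22.6 and 23.7 TPM in differentiated libraries, beside PF4 at 0 and 0.14 TPM. PDGFRB, a stromal marker, was called lower, at 0.87 and 0.41 against 4.99 and 2.24 TPM. Of the neutrophil markers, ELANE, PRTN3 and AZU1 were at 0 in all libraries, and MPO, FCGR3B and CEACAM8 did not exceed 0.47 TPM in any. The sums over the 5 NK cell and 6 neutrophil markers did not exceed 1.78 and 0.5 TPM in any library.

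The genes whose levels were most like those of a member were taken as the 3 with the smallest Euclidean distance of log2(TPM + 1) over the 4 libraries, for ITGAM and ITGB2. For ITGAM these were SCARNA21, CXCL16 and MAF (distances 0.038, 0.0458 and 0.0652). For ITGB2 they were HLA-DRB5, GSN and SPI1 (0.397, 0.45 and 0.469). With 4 libraries in 2 stages, such likeness describes levels and no more.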

How the data were processed

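RNA was measured in 4 libraries, 2 per stage, assigned to stages by their titles. The deposited values are TPM made by the authors with tools that the submitters' processing notes name as Trimmomatic, STAR and RSEM. For the tools' versions and settings, and for the genome build and annotation, the answer is the same: not given in the sources used here. TPM keeps no sequencing depth, so depth is unknown and no counting interval was computed. The 10180 genes that reached 1 TPM in 2 or more libraries were transformed to log2(TPM + 1) and fitted with limma 3.58.1 in R 4.3.3 (eBayes with a mean-variance trend, two-sided, 2 residual degrees of freedom), with Benjamini-Hochberg adjustment over all of them. The prior had 10.9 degrees of freedom, so each SE and p gives more weight to genes of similar level than to the gene's own spread. The procedure was tested on simulated data.

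The members, the gene lists and the rule for named genes were chosen with earlier results of these data known. Named are all members and, per list, up to 3 called genes with the largest change in each direction and the most abundant gene not called; some results under these rules are not reported here. VCAM1, MADCAM1, ITGAD, FERMT3, ICAM1 and the marker genes were named after their values were seen. The alternatives were 3 scalings, another pseudocount, other filters, no variance trend, a test against a log2 fold change of 1, a replicate block and each library left out. Gene types came from GENCODE release 29, which held 58039 of the 58302 IDs. Promoter windows are RefSeq's. A planned search of protein motifs was not run.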

Additional observations from a re-analysis of the deposited data

How the results depend on the processing

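The 7 higher and 1 lower calls among the members did not change in number after quantile normalization, after scaling by median of ratios, with a pseudocount of 0.1, without a variance trend and with the replicate block. In these settings 17.0% to 27.2% of all tested genes were called higher and 20% to 29.4% lower. Rescaling over protein-coding genes gave 8 higher and 1 lower. Without a filter on low values 5 members were called higher and 0 lower, where 2.35% and 1.96% of the 29186 genes then tested were called. There ITGA4 (adjusted p = 0.0709), ITGA5 (0.0824) and ITGB1 (0.112) lost their calls. Against a log2 fold change of 1, 4 were called higher and 1 lower, where 6.86% and 5.96% of all tested genes were called. There ITGAV (adjusted p = 0.0508), ITGA5 (0.247) and ITGB1 (0.62) lost their calls. With single libraries left out (a stage of 1 library then takes its spread from the other stage) the members called higher ranged from 4 to 7 and those called lower from 0 to 1, and the genes called in all ranged from 1271 to 5652 against 4216 with all libraries. That number was 1260 without a filter, 2436 with a minimum of 5 TPM and 1305 against a log2 fold change of 1. The replicate numbers are not stated to pair libraries, and deviations of same-numbered libraries correlated at -0.0237 over genes; with the replicate block 3766 genes were called and ITGB1 had an adjusted p of 0.0247. Of all calls, 44.8% were higher as deposited and 65.6% over protein-coding genes.

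With the listed members alone as the denominator, the difference in share between stages (differentiated minus undifferentiated, in percentage points) went from 30.2 to 35.5 for ITGB2, from -35.8 to -31.5 for ITGB1, from -56.5 to -79.7 for ITGA4 and from 42.4 to 45.3 for ITGAM with ITGAX. Of the 23 genes outside the members that the rule named for a call, 12 lost it under at least 1 alternative and 0 reversed. Genes of activation and linkage called higher ranged from 1 to 14 over the 13 alternatives, against 6 as deposited. The share of all tested genes called higher ranged from 2.35% to 34.3%, against 18.6% as deposited. Unknown depth leaves the precision of values near 0 undetermined.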
